A study of Schmidtea mediterranea with 5 samples.

Results

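The planarian *Schmidtea mediterranea* keeps a population of dividing stem cells, the neoblasts. The transcripts described here stood out in a sorted cell fraction associated with neoblast progeny. By the rule below they were also less than 2-fold lower after RNAi of *mex3-1*, on a scale that adds 1 to each value. Without that addition, 21 of them were at or below 0.5 times their control value. These 101 transcripts were chosen by their measured values among 68301 transcripts counted in all 5 libraries. A transcript had at least 5 CPM (mapped reads scaled to the same total in each library) in X2, an X2 value at least 2-fold above X1 and at least 4-fold above irradiated animals, a *mex3-1(RNAi)* value above 0.5 and below 2 times that of *control(RNAi)*, and an irradiated value below 2 times that of *control(RNAi)*. Folds throughout are ratios of CPM + 1, the scale on which the values were deposited. Transcripts on the study's lists of new epithelial progenitor, known X2 and known stem cell transcripts were then left out. The X2 criteria alone were met by 134 transcripts, all numeric criteria by 105, and 4 of those stood on the lists (*sox9-1*, *Smed-p53*, *Smed-not6* and *pmp-2*). Since these ratios chose the members, they are given as a description.

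All animals were of the asexual clonal strain CIW4. X1 and X2 are cell fractions sorted from dissociated animals by Hoechst staining and FACS. X1 gathers cells with replicated DNA, mostly neoblasts, and X2 is associated with their postmitotic progeny but also holds neoblasts. The irradiated library came from whole animals 7 days after 60 Gy of gamma rays, a dose that removes dividing cells. The *control(RNAi)* library came from whole animals fed *unc22* dsRNA, and *mex3-1(RNAi)* from whole animals fed *mex3-1* dsRNA, each taken 12 days after 1 feed by the sample names, although the general growth note gives 5 feeds. Each RNAi library was an equal pool of 3 RNA preparations. With 1 library per condition, no difference below has a replicate check, and none was tested across animals.

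MEX3 proteins are RNA-binding proteins of the KH family, and in planarians *mex3-1* is known for its role in the step from neoblast to postmitotic progeny. The best known of those progeny form the epidermis, first as cells with *prog-1* and *prog-2* transcripts and later as cells with *AGAT-1*. Other progeny leave the neoblast pool for gut, muscle, nervous system and other tissues, and the X2 gate is not specific to any of these lineages. In whole animals, fewer cells of a type and less RNA per cell cannot be told apart, and X2 over irradiated compares sorted cells with whole animals. By the sample names, *control(RNAi)* animals had an RNAi feed, and none is given for irradiated animals. The study describes the irradiated library as multiplexed with X1 and X2, without naming the RNAi libraries. Feeding, sequencing and irradiation therefore cannot be told apart in *control(RNAi)* over irradiated.

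The recovered totals lay between 60528509 and 69835694 reads. *mex3-1* itself fell from 144 CPM in *control(RNAi)* to 23.4 CPM in *mex3-1(RNAi)*, and stood at 452 CPM in X1, 1051 in X2 and 50.03 in irradiated animals. *prog-2* was at 4477 CPM in X2 and fell from 485 to 14.0 CPM after *mex3-1* RNAi, and *AGAT-1* fell from 224 to 11.8 CPM. The stem cell marker *piwi-1* was at 3697 CPM in X1, 934 in X2, 3.21 in irradiated animals, 308 in *control(RNAi)* and 452 in *mex3-1(RNAi)*, so X2 was not free of stem cell transcripts. The 59 known stem cell transcripts summed to 33780 CPM in X1 and 19769 in X2, and their part in the values below was not tested. None of the 59 was at 0 reads in any library. Where both libraries of a comparison reached 5 CPM, the log2 fold had a median of 0.31 for X2 over irradiated animals, 0.03 for X2 over X1, 0.09 for *control(RNAi)* over irradiated and 0.02 for *mex3-1(RNAi)* over *control(RNAi)*. With these medians set to 0, 66 of the 101 members still met the rule.

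Together the members were a small part of each library. Their CPM values summed to 2534 in X1, 8930 in X2, 1250 in irradiated animals, 1893 in *control(RNAi)* and 1562 in *mex3-1(RNAi)*. X2 was thus the high library, and the irradiated library the low one. A member had a median of 40.1 CPM in X2 (5.04 to 1161), 8.10 in X1 (0.0926 to 173), 5.04 in irradiated animals (0 to 146), 7.04 in *control(RNAi)* (0.145 to 170) and 6.93 in *mex3-1(RNAi)* (0 to 168). Taken in each library on its own, the lowest read number of any member was 305 in X2, 6 in X1 and 10 in *control(RNAi)*. The members thus differ widely in how firmly a change could be seen. Further, 4 members had no read in irradiated animals and 21 were below 1 CPM in *control(RNAi)*. No member was without a read in X1, where 46 reached 10 CPM.

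**Figure D1:**
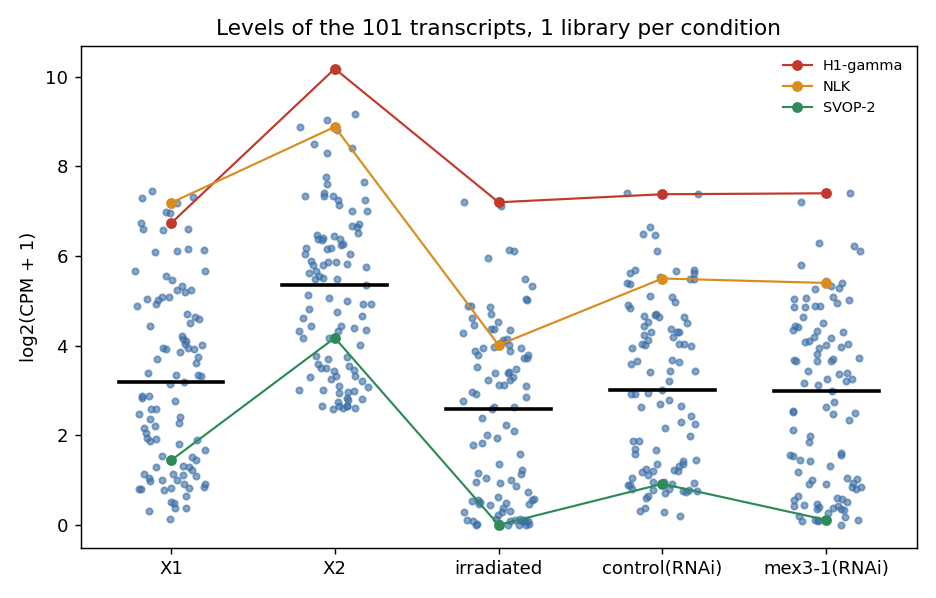
Level of each of the 101 members as log2(CPM + 1) in the 5 libraries, with black bars at the median member and lines for 3 named transcripts. X2 is highest, with a median of 40.1 CPM, and *NLK* and *SVOP-2* are lower in irradiated animals than in *control(RNAi)* while *H1-gamma* is nearly level between the whole-animal libraries.

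The thresholds cut through a continuous range. The members just inside the X2 level were SmedASXL_005720 at 5.04 CPM and SmedASXL_067389 at 5.06 CPM, and among transcripts that passed every other criterion the nearest outside were SmedASXL_009281 at 4.96 CPM and SmedASXL_012158 at 4.81 CPM. For X2 over X1, SmedASXL_073855 (2.01-fold) and SmedASXL_066955 (2.01-fold) were inside and SmedASXL_006050 (1.99-fold) and SmedASXL_013163 (1.98-fold) outside. Neighbours across the line were therefore alike. For X2 over irradiated animals SmedASXL_004269 (4.05-fold) and SmedASXL_019697 (4.09-fold) were inside and SmedASXL_011536 (3.99-fold) and SmedASXL_010925 (3.99-fold) outside. At the lower end of the *mex3-1* window SmedASXL_010433 (0.53) and *prog-2-6* (0.54) were inside, and SmedASXL_007901 (0.50) and SmedASXL_012573 (0.49) outside. The upper end of the window and the limit on irradiated over *control(RNAi)* removed no transcript, and the highest values there were 1.32 for SmedASXL_012058 and 0.98 for SmedASXL_008748.

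Gene names were at hand for 13 members, and 88 carry only a transcript identifier. The names and best protein matches come from the study's supplementary tables and rest on sequence similarity, most often to mouse. Among the study's top 100 X2-enriched transcripts, called the X2 list below, 98 were measured and 19 are members. The list ranks enrichment rather than level, and 78 of the 98 reached 5 CPM in X2. That list was drawn up by the study with these X1, X2 and irradiated libraries, so its overlap with the members is not independent of the rule. None of the members is among the study's transcripts down-regulated after *mex3-1* RNAi. Of 196 such transcripts measured, 81 reached 5 CPM in X2, among 9689 transcripts that did so. The X2 criteria were met by 28 of them, and 27 of these were at least 2-fold lower in *mex3-1(RNAi)*. The window thus nearly fixed this absence, and nothing is read from it.

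**Figure D2:**
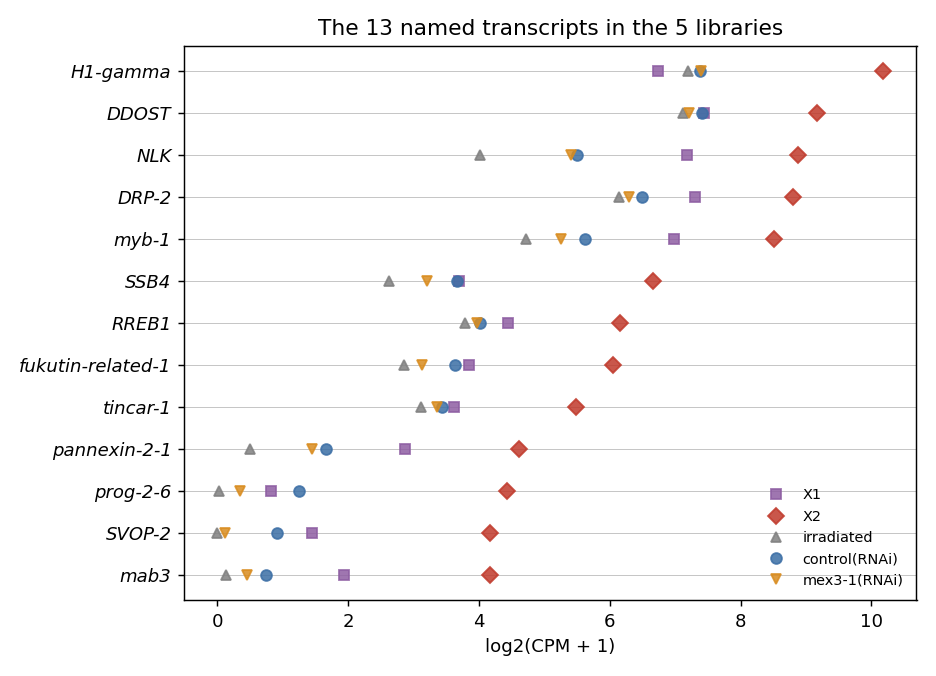
Level of the 13 named members as log2(CPM + 1), with 1 symbol for each library. X2 is the highest library for each of them, and irradiated animals are the lowest for all but *H1-gamma*, whose lowest value is in X1.

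The chromatin member was *H1-gamma*, a linker histone with its best match to the mouse oocyte linker histone. It had more reads in X2 than any other member, at 1161 CPM, against 105 CPM in X1, 146 in irradiated animals, 166 in *control(RNAi)* and 168 in *mex3-1(RNAi)*. Only the X2 library stood apart, 10.9-fold above X1 (95% counting interval of the log2 fold 3.41 to 3.49), while the 3 whole-animal libraries were close to each other. The log2 fold of *mex3-1(RNAi)* over *control(RNAi)* was 0.02 (-0.02 to 0.06), and that of *control(RNAi)* over irradiated was 0.18 (0.14 to 0.22). The interval covers counting error only, here and below. Of 4 chromatin transcripts on the study's X2 list, *H1-gamma* was the one that passed the X2 criteria. The other 3, among them *GATAD2A*, a subunit of a nucleosome remodelling complex in mammals, and *Smed-BRG1L*, did not reach 2-fold in X2 over X1.

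Transcription factors gave 3 members. *myb-1*, a member of the Myb family of DNA-binding proteins, was at 125 CPM in X1, 363 in X2, 25.2 in irradiated animals, 48.3 in *control(RNAi)* and 37.3 in *mex3-1(RNAi)*. It was lower after irradiation, with a log2 fold of 0.91 (0.83 to 0.99) for *control(RNAi)* over irradiated, and lower by less in *mex3-1(RNAi)*, at -0.36 (-0.44 to -0.29). *RREB1*, a zinc finger factor that acts downstream of Ras in mammals, was at 20.8 CPM in X1, 70.1 in X2, 12.9 in irradiated animals, 15.2 in *control(RNAi)* and 14.6 in *mex3-1(RNAi)*. Its whole-animal values lay close together, and the interval of *mex3-1(RNAi)* over *control(RNAi)* held 0, at -0.05 (-0.17 to 0.07). *mab3*, of the DM-domain family known from sex determination in other animals, was at 2.82 CPM in X1, 16.97 in X2, 0.1002 in irradiated animals (7 reads), 0.668 in *control(RNAi)* (46 reads) and 0.364 in *mex3-1(RNAi)* (23 reads). Its order of libraries was that of *myb-1*, but below 1 CPM in *control(RNAi)* the ratio could not reach 0.5 whatever the reads.

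Of the 14 transcription factors on the X2 list, 5 passed the X2 criteria. The other 2 were *egr-1* and *sox9-1*, both on the epithelial progenitor list. *egr-1*, of the early growth response family, was at 21.1 CPM in *control(RNAi)* and 8.38 in *mex3-1(RNAi)*. *sox9-1*, of the SOX family, was at 18.6 and 9.44 CPM, just inside the window. The members *myb-1* and *RREB1* had *mex3-1(RNAi)* over *control(RNAi)* ratios of 0.78 and 0.96, against 0.42 for *egr-1* and 0.53 for *sox9-1*. The window set this order for *egr-1*, while *sox9-1* was left out by its list. The ratio of 0.82 for *mab3* is held up by the 1 added to each CPM, so it is not ranked with these.

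Signalling and ubiquitin adaptors gave *NLK* and *SSB4*, 2 of the 7 such transcripts on the X2 list. *NLK*, a Nemo-like serine/threonine kinase that acts on Wnt signalling in other animals, was at 145 CPM in X1, 472 in X2, 15.2 in irradiated animals, 44.2 in *control(RNAi)* and 41.2 in *mex3-1(RNAi)*. Irradiated animals were clearly the low library, and the 2 RNAi libraries were alike. The log2 fold of *control(RNAi)* over irradiated was 1.48 (1.39 to 1.58) and that of *mex3-1(RNAi)* over *control(RNAi)* -0.10 (-0.17 to -0.03). Of the 13 members that irradiated animals held at 0.5 times *control(RNAi)* or less, *NLK* had the *mex3-1(RNAi)* value nearest to that of *control(RNAi)*. *SSB4*, a SOCS box protein of the kind that links substrates to ubiquitin ligases, was at 11.9 CPM in X1, 100 in X2, 5.17 in irradiated animals, 11.6 in *control(RNAi)* and 8.24 in *mex3-1(RNAi)*. It was 2.05-fold higher in *control(RNAi)* than in irradiated animals, and *mex3-1(RNAi)* lay between those libraries, at a log2 fold of -0.45 (-0.60 to -0.30) over *control(RNAi)*. The kinase *pim3-1* and the ubiquitin ligase *TRAF6-1* were X2-biased over X1 but less than 4-fold above irradiated animals.

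Members of the secretory pathway were *DDOST* and *fukutin-related-1*. *DDOST*, a subunit of the enzyme that attaches N-linked glycans in the endoplasmic reticulum, was at 173 CPM in X1, 576 in X2, 138 in irradiated animals, 170 in *control(RNAi)* and 147 in *mex3-1(RNAi)*. The 4 libraries other than X2 thus lay between 138 and 173 CPM. *fukutin-related-1*, matched to a protein that glycosylates dystroglycan in mammals, was at 13.5 CPM in X1, 65.0 in X2, 6.26 in irradiated animals, 11.4 in *control(RNAi)* and 7.72 in *mex3-1(RNAi)*. Here the order was *control(RNAi)*, then *mex3-1(RNAi)*, then irradiated animals, with log2 folds of 0.78 (0.62 to 0.93) for *control(RNAi)* over irradiated and -0.51 (-0.66 to -0.36) for *mex3-1(RNAi)* over *control(RNAi)*. Of 8 secretory and chaperone transcripts on the X2 list 4 passed the X2 criteria. The other 2 were the nucleobindins *NUCB1-1* and *NUCB1-2*, calcium-binding proteins of the Golgi in mammals, and both were outside the window. *NUCB1-1* fell from 16.8 to 3.39 CPM and *NUCB1-2* from 24.1 to 4.10 CPM after *mex3-1* RNAi.

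Membrane proteins gave *tincar-1*, *pannexin-2-1* and *SVOP-2*, 3 of 5 on the X2 list. *tincar-1*, related to a multipass membrane protein of *Drosophila*, was at 11.3 CPM in X1, 44.0 in X2, 7.66 in irradiated animals, 9.80 in *control(RNAi)* and 9.27 in *mex3-1(RNAi)*, so its whole-animal values were close. *pannexin-2-1*, matched to a mouse channel protein, was at 6.29 CPM in X1, 23.5 in X2, 0.415 in irradiated animals (29 reads), 2.16 in *control(RNAi)* (149 reads) and 1.72 in *mex3-1(RNAi)* (109 reads). Its log2 fold of *control(RNAi)* over irradiated was 1.16 (0.93 to 1.36), and that of *mex3-1(RNAi)* over *control(RNAi)* was -0.22 with an interval that held 0 (-0.45 to 0.03). *pannexin-2-1* was therefore low in irradiated animals, like *NLK*, with *mex3-1(RNAi)* nearer to *control(RNAi)*.

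*SVOP-2*, matched to a transporter-like protein of synaptic vesicles in the mouse, did not share that pattern. It was at 1.71 CPM in X1, 17.05 in X2, 0.886 in *control(RNAi)* (61 reads) and 0.0791 in *mex3-1(RNAi)* (5 reads), with 0 reads in irradiated animals, which allows up to 0.0430 CPM. *mex3-1(RNAi)* and irradiated animals were both near the floor. The ratio of CPM + 1 was 0.57, inside the window, while the plain ratio of CPM was 11.2-fold lower in *mex3-1(RNAi)*. The next identifier belongs to *SVOP-1*, a transcript of the epithelial progenitor list, which was at 10.9 CPM in *control(RNAi)* and 0.775 in *mex3-1(RNAi)*.

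Of the cytoskeletal transcripts on the X2 list *DRP-2* was a member. *DRP-2*, matched to a dihydropyrimidinase-related protein that binds tubulin in mammals, was at 157 CPM in X1, 447 in X2, 69.6 in irradiated animals, 89.1 in *control(RNAi)* and 77.9 in *mex3-1(RNAi)*. X2 was high, X1 was next, and the whole-animal libraries were close to each other. Its log2 fold of *control(RNAi)* over irradiated was 0.35 (0.30 to 0.41) and that of *mex3-1(RNAi)* over *control(RNAi)* -0.19 (-0.25 to -0.14). No member came from the 6 RNA-binding and transcription transcripts, the 3 metabolic ones or the DNA repair gene *ERCC-1* on that list. Over the whole list 19 of 98 were members, and with groups this small nothing is read from the number of members in each. The one RNA-binding transcript that passed the X2 criteria was *mex3-1*, the target of the RNAi.

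*prog-2-6* is named as a relative of *prog-2*, the marker of early epithelial progeny, and it was a member by a narrow margin. It was at 0.771 CPM in X1, 20.6 in X2, 0.0143 in irradiated animals (1 read), 1.36 in *control(RNAi)* (94 reads) and 0.269 in *mex3-1(RNAi)* (17 reads). X2 was high and both irradiated and *mex3-1(RNAi)* animals were low. Its log2 fold of *mex3-1(RNAi)* over *control(RNAi)* was -0.90 (-1.09 to -0.66), so the counting interval reached below the end of the window, and the plain ratio of CPM was 5.07-fold lower. Among the *prog-2* relatives outside the window, *prog-2-3* fell from 601 to 19.8 CPM and *prog-2-5* fell from 200 to 7.01 CPM.

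Another 6 members of the study's X2 list carry no gene name. Besides SmedASXL_019450 and SmedASXL_017351, described with the irradiated animals, these are SmedASXL_004708, SmedASXL_001324, SmedASXL_052437 and SmedASXL_068812. SmedASXL_004708 was at 16.2 CPM in X1, 81.6 in X2, 7.55 in irradiated animals, 15.4 in *control(RNAi)* and 8.53 in *mex3-1(RNAi)*, so *mex3-1(RNAi)* was nearer to irradiated animals than to *control(RNAi)*. SmedASXL_001324 was at 29.4 CPM in X1, 64.9 in X2, 6.83 in irradiated animals, 8.33 in *control(RNAi)* and 8.50 in *mex3-1(RNAi)*, with both RNAi libraries level. The other 2 had few reads in whole animals, SmedASXL_052437 with 1.58 CPM in *control(RNAi)* and 0.918 in *mex3-1(RNAi)*, and SmedASXL_068812 with 0.871 and 0.332 CPM.

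After SmedASXL_019450, the unnamed members with the most reads in X2 were not on that list. SmedASXL_018986 was at 123 CPM in X1, 339 in X2, 61.5 in irradiated animals, 87.6 in *control(RNAi)* and 68.0 in *mex3-1(RNAi)*. SmedASXL_013582 was at 31.8 CPM in X1, 316 in X2, 68.6 in irradiated animals, 99.5 in *control(RNAi)* and 73.5 in *mex3-1(RNAi)*. In both, *mex3-1(RNAi)* was closer to irradiated animals than to *control(RNAi)*, and the whole range of the whole-animal libraries was narrow beside the distance to X2. SmedASXL_018800 was at 96.6 CPM in X1, 216 in X2, 28.6 in irradiated animals, 45.5 in *control(RNAi)* and 32.6 in *mex3-1(RNAi)*. SmedASXL_012734 was at 96.6 CPM in X1, 199 in X2, 43.6 in irradiated animals, 68.1 in *control(RNAi)* and 55.0 in *mex3-1(RNAi)*. SmedASXL_019569 was at 95.2 CPM in X1, 194 in X2, 31.8 in irradiated animals, 50.8 in *control(RNAi)* and 42.5 in *mex3-1(RNAi)*. These 3 were only slightly more than 2-fold higher in X2 than in X1, unlike SmedASXL_013582 at 9.64-fold, and all 5 kept the order *control(RNAi)*, *mex3-1(RNAi)*, irradiated.

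Levels with and without irradiation were compared in whole animals, by *control(RNAi)* over irradiated, although RNAi feeding also differs in that ratio. The rule used that ratio only to remove transcripts 2-fold higher after irradiation, but it required a low irradiated value relative to X2, so it favours a ratio above 1. All 101 members were higher in *control(RNAi)* than in irradiated animals, against 74.2% of the 9689 transcripts with at least 5 CPM in X2, and the interval lay above 1 for 96 members, against 63.9%. With the median log2 fold set to 0 the count was 98, without SmedASXL_008748, SmedASXL_058986 and SmedASXL_071187. The size was small for most. At least 1.5-fold was reached by 57 members, against 18.1%, and at least 2-fold by 13, against 4.83%. The median log2 fold of the members was 0.62 (range 0.03 to 2.47), and that of all transcripts tested was 0.22. With a pseudocount of 0.1 CPM, 39 members reached 2-fold, a count that cannot be set beside the 4.83%, which holds for CPM + 1. On the CPM + 1 scale, then, 88 members were less than 2-fold higher in *control(RNAi)*. Of these, 21 were below 1 CPM there, where the scale cannot show 2-fold, as for *SVOP-2* with 61 reads in *control(RNAi)* and 0 in irradiated animals. The scale also narrows folds just above 1 CPM, and of the 22 members at 1 to 5 CPM in *control(RNAi)*, 6 reached 2-fold. For the other 67, on this scale, the name of progeny transcripts rests mainly on the sorted fractions. Some of the 67 reached 2-fold with the pseudocount of 0.1 CPM, so they are not shown to be insensitive to irradiation.

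The 13 members 2-fold lower after irradiation were *NLK*, *SSB4*, *pannexin-2-1*, *prog-2-6* and 9 unnamed transcripts. The largest difference was that of SmedASXL_015337, at 66.7 CPM in X1, 151 in X2, 2.55 in irradiated animals, 18.7 in *control(RNAi)* and 9.89 in *mex3-1(RNAi)*, a log2 fold of 2.47 (2.30 to 2.64) for *control(RNAi)* over irradiated. The next identifier, SmedASXL_015338, followed the same order, at 21.7 CPM in X1, 48.2 in X2, 1.02 in irradiated animals, 6.68 in *control(RNAi)* and 3.31 in *mex3-1(RNAi)*. SmedASXL_019450 was at 158 CPM in X1, 524 in X2, 12.3 in irradiated animals, 49.5 in *control(RNAi)* and 28.1 in *mex3-1(RNAi)*. In all 3 transcripts irradiated animals were lowest and *mex3-1(RNAi)* lay between irradiated animals and *control(RNAi)*. Their log2 folds of *mex3-1(RNAi)* over *control(RNAi)* were -0.85 (-0.98 to -0.73), -0.83 (-1.03 to -0.64) and -0.79 (-0.87 to -0.71).

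SmedASXL_008003 had 1 read in irradiated animals (0.0143 CPM), and was at 2.79 CPM in X1, 30.8 in X2, 1.55 in *control(RNAi)* and 1.01 in *mex3-1(RNAi)*. SmedASXL_017351 was at 3.87 CPM in X1, 24.2 in X2, 0.501 in irradiated animals, 3.79 in *control(RNAi)* and 1.90 in *mex3-1(RNAi)*. Both were low in irradiated animals, and *mex3-1(RNAi)* was 0.79 times *control(RNAi)* for the first and 0.60 times for the second. SmedASXL_005315 and SmedASXL_006327 were just past 2-fold, at 47.9 and 18.7 CPM in *control(RNAi)*, 23.4 and 8.38 CPM in irradiated animals and 28.8 and 11.6 CPM in *mex3-1(RNAi)*, again with *mex3-1(RNAi)* in between. Over the 13, the median log2 fold of *mex3-1(RNAi)* over *control(RNAi)* was -0.72 (range -0.93 to -0.10), and 9 were at least 1.5-fold lower. Over the other 88 it was -0.30 (range -0.87 to 0.40), and 11 were at least 1.5-fold lower. The comparisons share the *control(RNAi)* library, so a chance high count there moves both ratios, and no relation between them is drawn.

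At the other end, 5 members had intervals of *control(RNAi)* over irradiated that held 1. SmedASXL_008748 was at 14.1 CPM in X1, 53.2 in X2, 9.52 in irradiated animals, 9.74 in *control(RNAi)* and 11.8 in *mex3-1(RNAi)*. SmedASXL_009728 was at 5.77 CPM in X1, 27.4 in X2, 5.77 in irradiated animals, 6.59 in *control(RNAi)* and 7.97 in *mex3-1(RNAi)*. In both, X2 was the one high library. The remaining 3, SmedASXL_071187, SmedASXL_058986 and SmedASXL_013048, were at 0.929, 0.290 and 0.697 CPM in *control(RNAi)*, where few reads were counted.

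**Figure D3:**
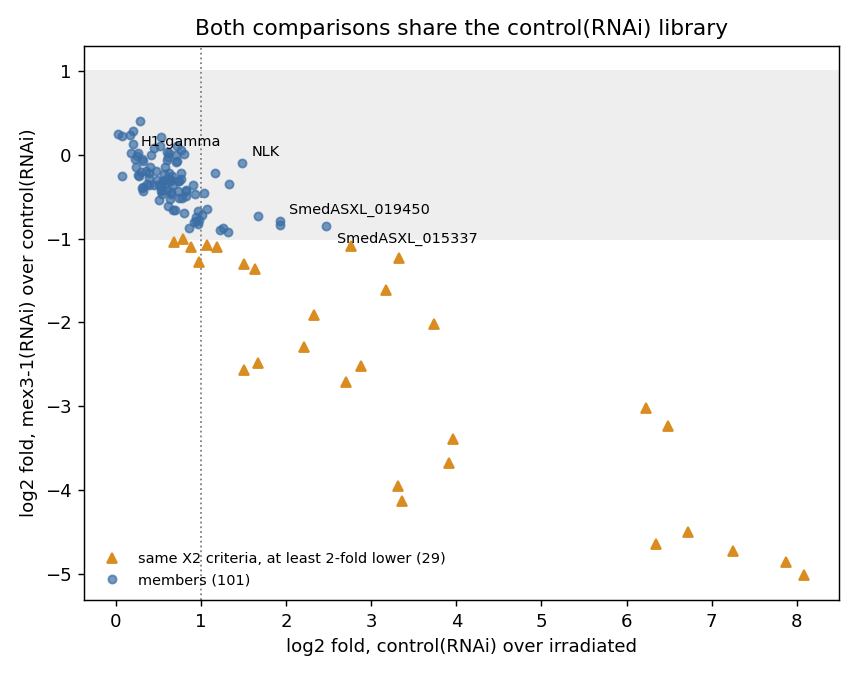
Log2 fold of *mex3-1(RNAi)* over *control(RNAi)* against that of *control(RNAi)* over irradiated for the 101 members (circles) and the 29 transcripts that met the X2 criteria but were at least 2-fold lower after *mex3-1* RNAi (triangles), with the window in grey and a dotted line at 2-fold. The split on the vertical axis is set by the rule, and 13 members lie at or right of the dotted line.

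The members were not centred on equal levels in the 2 RNAi libraries. *mex3-1(RNAi)* was below *control(RNAi)* for 85 of 101 members, against 50.6% of all transcripts tested, and the median log2 fold was -0.32, against -0.00178 for all tested. The interval lay below 1 for 71 members, against 28.1%, above 1 for 5, against 28.4%, and held 1 for 25. At least 1.5-fold lower were 20 members, against 1.87%, and 0 members were at least 1.5-fold higher, against 1.62%. The window used this ratio, so these shares describe what lies within it and nothing is read from them. Where *control(RNAi)* was at least 10 CPM and counting was firm, 41 of 46 members were below 1, with a median log2 fold of -0.30, and 5 were at least 1.5-fold lower, namely SmedASXL_004708, SmedASXL_005315, SmedASXL_006327, SmedASXL_015337 and SmedASXL_019450.

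The highest ratio was that of SmedASXL_012058, at 35.8 CPM in X1, 128 in X2, 19.5 in irradiated animals, 24.0 in *control(RNAi)* and 32.1 in *mex3-1(RNAi)*. It was the member with the clearest higher value after *mex3-1* RNAi, at a log2 fold of 0.40 (0.31 to 0.49). SmedASXL_013048, at 0.697 and 1.08 CPM in the RNAi libraries, and SmedASXL_008748 had the next ratios, with log2 folds of 0.29 (0.03 to 0.54) and 0.25 (0.11 to 0.39). The lowest ratios were those of SmedASXL_010433, *prog-2-6* and SmedASXL_013430. SmedASXL_010433 was at 0.725 CPM in X1, 25.7 in X2, 0.0859 in irradiated animals, 1.71 in *control(RNAi)* and 0.427 in *mex3-1(RNAi)*. SmedASXL_013430 was at 4.15 CPM in X1, 19.0 in X2, 1.25 in irradiated animals, 4.38 in *control(RNAi)* and 1.93 in *mex3-1(RNAi)*. All 3 were low in irradiated animals as well, and their plain CPM ratios were below the window.

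How far independence of *mex3-1* could be seen depended on the level. On the CPM + 1 scale a transcript below 1 CPM in *control(RNAi)* stays above 0.5 even with no read left, and 21 members were below it. For the other 80 a fall out of the window was possible, but just above 1 CPM only with nearly all reads lost. *prog-2-6*, at 1.36 CPM in *control(RNAi)*, was 5.07-fold lower by plain CPM and stayed inside. The median log2 fold of *mex3-1(RNAi)* over *control(RNAi)* was -0.29 for the 21 and -0.96 with a pseudocount of 0.1 CPM, while for the 58 members with at least 5 CPM it was -0.30 and -0.31, so the smaller pseudocount moved the thinly counted members and hardly moved the rest. With a pseudocount of 0.1 CPM in place of 1, 18 of the 101 members were at or below 0.5, against 1.12% of all transcripts tested, and these were the 18 members that the rule lost at that setting. Of the 18, 10 were below 1 CPM in *control(RNAi)* and 8 between 1 and 5 CPM. None of the 58 members with at least 5 CPM was among them. By plain CPM, with no pseudocount, 21 members were at or below 0.5, against 1.18% of all transcripts tested. These were the same 18 and SmedASXL_012973, SmedASXL_067389 and SmedASXL_015338, the last at 6.68 and 3.31 CPM in the RNAi libraries. For these 21 the label of independence from *mex3-1* depends on the pseudocount, and they are called members by the rule only.

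SmedASXL_061900 shows the extreme of that group, at 0.247 CPM in X1, 5.27 in X2, 0.0716 in irradiated animals, 0.944 in *control(RNAi)* (65 reads) and 0.0633 in *mex3-1(RNAi)* (4 reads). Its plain CPM ratio was 14.9-fold lower in *mex3-1(RNAi)*, although the ratio of CPM + 1 was 0.55. SmedASXL_012096 had 47 reads in *control(RNAi)* and 4 in *mex3-1(RNAi)*, or 10.8-fold lower by plain CPM. SmedASXL_005720 had 36 reads in *control(RNAi)* and 0 in *mex3-1(RNAi)*, or at least 11.01-fold lower against a floor of 3 reads per library. SmedASXL_023805 had 38 and 5 reads and, like SmedASXL_005720, none in irradiated animals. In contrast SmedASXL_035409, also without a read in irradiated animals, had 10 reads in *control(RNAi)* and 16 in *mex3-1(RNAi)*, too few to place it. The first 3 of these transcripts had 319, 415 and 305 reads in X2 and were low in both irradiated and *mex3-1(RNAi)* animals.

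**Figure D4:**
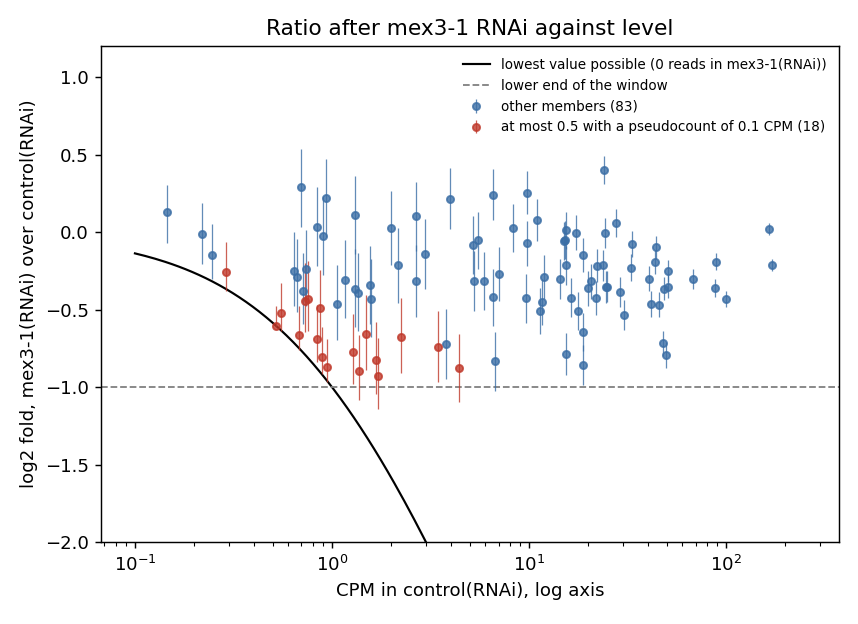
Log2 fold of *mex3-1(RNAi)* over *control(RNAi)* against CPM in *control(RNAi)* (log axis) for the 101 members, with 95% counting intervals as bars. The black curve is the lowest value that CPM + 1 allows, which lies above the dashed end of the window below 1 CPM, and the 18 members in red are at or below 0.5 with a pseudocount of 0.1 CPM, none of them with 5 CPM or more.

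X2 over X1 among the members ran from 2.01-fold to 21.2-fold, with a median log2 fold of 1.81 against 0.14 for all transcripts tested, where 17.7% reached 2-fold. X2 over irradiated ran from 4.05-fold to 42.8-fold, with a median log2 fold of 2.57 against 0.60, where 12.7% reached 4-fold. The rule used both. The highest X2 over X1 was that of SmedASXL_018991, at 5.03 CPM in X1, 127 in X2, 21.2 in irradiated animals, 30.4 in *control(RNAi)* and 20.6 in *mex3-1(RNAi)*. SmedASXL_017966 was at 6.34 CPM in X1, 74.5 in X2, 15.8 in irradiated animals, 27.5 in *control(RNAi)* and 28.7 in *mex3-1(RNAi)*. Both had little RNA in X1, but *mex3-1(RNAi)* was below *control(RNAi)* for the first only.

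X2 was also compared with *control(RNAi)* whole animals, which the rule did not use as such, although it shares the X2 library with 3 of its criteria. All 101 members reached 2-fold in X2 over *control(RNAi)*, against 26.2% of transcripts tested, with a median log2 fold of 2.03 (range 1.26 to 3.64). For the 88 members under 2-fold in *control(RNAi)* over irradiated, the 4-fold limit on X2 over irradiated fixed this outcome. The count is therefore a description, and nothing is read from it. The median log2 fold of *control(RNAi)* over irradiated was 0.62, so most of the members' distance between X2 and irradiated animals lay between sorted cells and whole *control(RNAi)* animals. Sorting and preparation differ along with the cell makeup in that step and cannot be told apart. SmedASXL_008003 had the highest value, 12.5-fold above *control(RNAi)*.

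Set beside the members, the 29 transcripts that met the same X2 criteria but were at least 2-fold lower after *mex3-1* RNAi are described here by the comparisons that did not split them. Their median log2 fold of *control(RNAi)* over irradiated was 2.88 (range 0.68 to 8.09), and 25 of 29 reached 2-fold, against 13 of 101 members and 4.83% of all transcripts tested. Of the 29, 14 stood on the 3 lists that were left out of the members, and the other 15 had a median of 1.51, with 11 that reached 2-fold. The 15 include *mex3-1*, the target of the RNAi, whose own value was 1.51. In X2 over X1 the median log2 fold was 3.65 for the 29 and 3.27 for the 15, against 1.81 for the members. The split shares the *control(RNAi)* library with the first of these comparisons, so it favours this order, and the difference was not tested. Levels differed too, with a median of 16.8 CPM in *control(RNAi)* for the 15 and 7.04 CPM for the members. There, 21 members and 0 of the 15 were below 1 CPM, where this scale cannot show 2-fold. The larger group of 1569 transcripts that reached 2-fold in X2 over X1 but stayed under 4-fold above irradiated animals had a median log2 fold of -0.53 for X2 over *control(RNAi)* and 0.05 for *control(RNAi)* over irradiated. That group and the members were split on the irradiated library, which is also the denominator of the last ratio, so nothing is read from its order.

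Values in *mex3-1(RNAi)* were set directly beside irradiated animals as well. The median log2 fold of *mex3-1(RNAi)* over irradiated was 0.29 for the members, from -0.19 to 1.62, and 0.18 for all transcripts tested. For 82 members the ratio was under 1.5-fold, and 7 were at or below their value in irradiated animals. Over all transcripts tested the quartiles of the log2 fold were -0.03 and 0.45, so ratios this small were common there too. Nothing is read from these counts. The highest ratios were those of SmedASXL_015337 (3.07-fold) and *NLK* (2.61-fold), so these transcripts were further from the irradiated level after *mex3-1* RNAi than other members were. SmedASXL_018991, of the highest X2 over X1, was at 0.98-fold.

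Some members may not be separate genes. Of the 101, 3 pairs had consecutive identifiers, namely SmedASXL_015337 with SmedASXL_015338, *pannexin-2-1* with SmedASXL_015207, and SmedASXL_011229 with SmedASXL_011230. The first pair was alike in *mex3-1(RNAi)* over *control(RNAi)*, at -0.85 and -0.83. *pannexin-2-1* and SmedASXL_015207 were at -0.22 and -0.02, and SmedASXL_011229 and SmedASXL_011230 at -0.23 and -0.67. Whether such pairs are parts of 1 transcript, copies or neighbours was not analysed here, and reads may be split between them.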

How the data were processed

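Poly(A)-selected RNA of 5 libraries was sequenced as single-end reads. Using Bowtie2 2.2.4, the authors aligned them to the SmedASXL transcriptome and deposited CPM + 1, in which the mapped reads of every library are scaled to one total and a pseudocount of 1 is added. Not used here were 10 further deposited columns, which hold X1, X2, irradiated and whole control animal libraries outside this series, and the deposited columns of the authors' own comparisons, which hold fold changes and adjusted p-values. After 1 was taken off, each value was a whole number of reads within 0.01 read, with totals of 64821930 for X1, 60528509 for X2, 69835694 for irradiated animals, 68883087 for *control(RNAi)* and 63209234 for *mex3-1(RNAi)*. The reads without a transcript name, at most 32 per library, were left out.

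Each fold has a 95% interval, made with the exact Clopper-Pearson method from the split of a transcript's reads between both libraries, which covers counting error only. A count of 0 allows up to 3 reads, or 0.0430 to 0.0496 CPM. CPM is not corrected for length, so an order of transcripts by CPM or reads is one of read numbers, not of transcript abundance. Each condition was taken from 1 library, so no p-value is given. The background for counts is the 9689 transcripts with at least 5 CPM in X2.

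The members, the lists and the comparisons were chosen with earlier results of these data known. Named transcripts are the members named in the supplementary tables, the 5 highest in X2, in X2 over X1 and in X2 over irradiated, the 5 highest and lowest in *control(RNAi)* over irradiated, the 3 highest and lowest in *mex3-1(RNAi)* over *control(RNAi)*, the 3 highest in *control(RNAi)*, and the 2 nearest each threshold. Others named were chosen after their values were seen. Alternatives were other thresholds, counting intervals, pseudocounts of 0.1 and 5 CPM, a median log2 fold of 0, and CPM computed after the 10 most abundant transcripts were taken out. The calculation was tested on simulated reads, with counting noise only and with changes placed only where *control(RNAi)* was at least 5 CPM. That simulation therefore did not test the window at lower levels. No genome or annotation was used. Calculations used scipy 1.17.1, pandas 2.3.3 and numpy 2.4.6 under Python 3.11.15, with plots from matplotlib 3.10.9.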

Additional observations from a re-analysis of the deposited data

How the results depend on the processing

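No paired analysis was made and no replicate was left out, because 1 library per condition was used. The deposited columns of further X1, X2 and irradiated libraries were not used. X2 over X1 and X2 over irradiated were therefore not checked in them. The rule gave 101 members. It gave 51 with a pseudocount of 5 CPM (43 shared with the 101), 66 with the median log2 folds set to 0 (all shared), 64 with X2 over X1 at least 3, 30 with X2 over irradiated at least 8, and between 76 and 127 under the other settings, among them 102 with a pseudocount of 0.1 CPM (83 shared). The 13 members 2-fold higher in *control(RNAi)* than irradiated became 39 with 0.1 CPM and 3 with 5 CPM, and 96 had a counting interval above 1. The 20 members 1.5-fold lower in *mex3-1(RNAi)* became 33 and 4, and 71 had an interval below 1. The 0 that were 1.5-fold higher stayed 0, and 5 had an interval above 1. With 0.1 CPM 18 members, and with no pseudocount 21, were at or below 0.5 in *mex3-1(RNAi)* over *control(RNAi)*, both settings chosen for this count after seeing the data.

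With pseudocounts of 0.1 and 5 CPM, the members' median log2 fold was 1.98 and 1.30 for X2 over X1 (1.81 as reported), 2.99 and 1.95 for X2 over irradiated (2.57), and 0.78 and 0.34 for *control(RNAi)* over irradiated (0.62). X2 over irradiated was 2.25 with the median set to 0 and 2.82 without the 10 most abundant transcripts. No median changed sign, and *mex3-1(RNAi)* was below *control(RNAi)* for 85 to 87 members under every setting of pseudocount and scaling. A smaller pseudocount widens the folds of transcripts with few reads by its construction. Depth limits the members below 1 CPM in *control(RNAi)*, which are 21, and variation between animals was not measured.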
